A study of Mus musculus with 2 samples.

Results

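Meiotic recombination begins when programmed double-strand breaks are cut into chromosomes, and ends when some of these breaks are repaired as crossovers that hold homologous chromosomes together. The genes described here cover that sequence. *Spo11*, *Mei1*, *Mei4* and *Prdm9* act in making and placing the breaks, *Dmc1* and *Meiob* on the single-stranded DNA that the breaks expose, and *Hfm1*, *Msh4*, *Msh5* and *Tex11* in turning repair intermediates into crossovers. In the juvenile testis such genes are known as germ cell genes that come on as spermatogonia commit to meiosis. The 10 genes were taken by symbol, under a rule that holds no measured value but was written with earlier results of these data known, from 39695 gene entries, of which 14831 averaged 1 RPKM or more across the pair of libraries and are called tested genes here. Of the 10, 8 were tested genes, and *Meiob* and *Msh4* averaged less. RPKM scales the reads on a gene to its length and to the size of the library, so a comparison of levels between genes depends on the gene lengths used.

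RNA came from whole testes of 9-day-old C57BL/6 mice, as labelled, with 1 library from a control and 1 library from Bcas2F/-;Vasa-Cre testes. The study's methods describe a mixed 129/C57BL/6 background. Control males were *Bcas2*F/-, with 1 floxed allele and the other already deleted, so the control is itself heterozygous for the loss. The mutants had the same alleles and in addition *Vasa-Cre*, a transgene active in germ cells, which leaves the floxed allele intact in the somatic cells of the same testis. The number of mice behind each library is not given in the sources used here.

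The library sizes, inferred from the RPKM values and annotated gene lengths, were 19918750 reads in control and 19331687 in Bcas2F/-;Vasa-Cre. Of 4453 genes used to infer them, 2360 gave the same size. Reads of single genes below were recovered with these sizes. With 1 library per genotype, no difference below has a check within these data against the spread between animals, and no p-value is given. In replicated RT-PCR of testes of the same age, scaled to *Gapdh*, the study reported significantly lower *Dmc1*, *Smc1b*, *Sycp1* and *Sycp3*. Among the genes it reported as similar were *Ddx4*, *Dazl*, *Stra8*, *Kit*, *Sohlh1* and *Sohlh2*. The 95% intervals cover counting error only. They are Clopper-Pearson intervals of the mutant library's share of a gene's reads, carried to the log2 scale, and Poisson intervals for single RPKM values. Changes are log2 ratios of RPKM + 1 in Bcas2F/-;Vasa-Cre over control, a scale that understates the change of weakly expressed genes. The targeted gene, *Bcas2*, measured 39.5 RPKM in the control library against 25.7 RPKM in Bcas2F/-;Vasa-Cre testes. That is 64.9% of the control level in RNA that includes the untargeted somatic cells. The defining genes of the tissue were present in both libraries, among them *Ddx4* for germ cells and *Sox9*, *Amh* and *Wt1* for Sertoli cells. Of 6 spermatid genes, which mark later stages, 2 were tested genes, and the summed RPKM of the 6 was 3.27 in control and 5.21 in Bcas2F/-;Vasa-Cre testes. *Spaca1* was more than 1.5-fold higher with 1.66 RPKM (35 reads) in control, 3.17 RPKM (65 reads) in Bcas2F/-;Vasa-Cre testes and a log2 ratio of 0.65 (0.23 to 1.06), and *Tnp1* had 1.32 and 1.36 RPKM.

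Of the 8 tested members, 3 were more than 1.5-fold lower in the Bcas2F/-;Vasa-Cre library, as were 1.69% of all tested genes. *Tex11*, *Prdm9* and *Mei1* stood at 54.1%, 52.5% and 47.5% of their control RPKM, and the intervals of *Prdm9* and *Mei1* reached to the inner side of 1.5-fold. With the germ cell markers as the scale, as described further on, 0 members were more than 1.5-fold lower at the pseudocount of 1. On that scale *Msh5*, at 0.60, was past 1.5-fold on the higher side. *Dmc1* was at 74.7%, with an interval that also lay below 0. *Spo11*, *Mei4*, *Hfm1* and *Msh5* had intervals that spanned 0, and *Meiob* and *Msh4* were too weakly expressed to enter the counts. Genes past 1.5-fold and genes within counting error of control were found both for break formation and for crossovers.

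Promoters of 7 of the 10 members were held in the RefSeq table used here, on build GRCm38.p6, from 250 bases before to 50 bases after the annotated start. The entries missing were those of *Spo11*, *Meiob* and *Tex11*. The promoters of 4 members are printed because they set a gene that was lower in Bcas2F/-;Vasa-Cre testes beside one that was not, in sequence that does and does not hold the motifs searched. *Prdm9* (chr17:15564305-15564604, minus strand, the upstream of its 2 entries) and *Mei1* (chr15:82082226-82082525, plus strand, inside the GENCODE span of the gene) belong to the first kind. *Hfm1* (chr5:106925841-106926140, minus strand) and *Msh5* (chr17:35046573-35046872, minus strand) belong to the second. *Hfm1* and *Msh5* each hold motifs, and the entries of *Mei4*, *Dmc1* and *Msh4*, which hold none, are not printed. The GENCODE gene of *Mei1* begins at 82069996, and the printed entry does not cover that start. Sequences run 5′ to 3′ along the gene, and capitals mark matches on either strand to CNCCTCAG, the site of STRA8 and MEIOSIN, and to GGCGGGA, a site of E2F6.
Prdm9: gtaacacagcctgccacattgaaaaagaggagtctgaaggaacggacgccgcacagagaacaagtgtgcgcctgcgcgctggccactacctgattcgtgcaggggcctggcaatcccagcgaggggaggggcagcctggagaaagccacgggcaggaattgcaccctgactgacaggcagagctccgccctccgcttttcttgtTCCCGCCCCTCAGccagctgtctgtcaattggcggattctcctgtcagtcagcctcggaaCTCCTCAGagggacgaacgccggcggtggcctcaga
Mei1: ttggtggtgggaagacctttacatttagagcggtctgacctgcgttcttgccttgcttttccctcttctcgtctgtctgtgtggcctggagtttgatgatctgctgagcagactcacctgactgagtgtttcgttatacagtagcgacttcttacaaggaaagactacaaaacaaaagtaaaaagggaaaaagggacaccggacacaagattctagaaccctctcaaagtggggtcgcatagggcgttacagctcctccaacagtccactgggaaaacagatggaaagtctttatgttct
Hfm1: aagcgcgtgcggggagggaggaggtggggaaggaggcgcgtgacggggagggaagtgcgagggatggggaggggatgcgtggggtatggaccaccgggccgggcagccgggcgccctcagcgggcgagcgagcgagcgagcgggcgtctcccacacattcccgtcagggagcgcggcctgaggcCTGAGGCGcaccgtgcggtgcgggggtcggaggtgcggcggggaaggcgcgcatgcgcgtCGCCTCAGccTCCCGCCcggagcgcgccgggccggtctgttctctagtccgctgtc
Msh5: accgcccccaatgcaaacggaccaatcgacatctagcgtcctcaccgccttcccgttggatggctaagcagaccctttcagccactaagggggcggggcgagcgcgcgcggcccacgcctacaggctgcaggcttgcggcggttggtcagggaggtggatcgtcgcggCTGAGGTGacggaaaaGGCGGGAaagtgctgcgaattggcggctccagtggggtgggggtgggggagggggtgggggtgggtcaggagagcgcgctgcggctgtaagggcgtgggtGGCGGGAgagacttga

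STRA8 and MEIOSIN form a transcription factor pair that switches on genes at meiotic entry, and E2F6 belongs to a repressor complex that keeps germline genes silent elsewhere. The STRA8 and MEIOSIN letters were found in promoters of *Prdm9*, *Hfm1* and *Msh5*, which makes 3 of the 7 members with an entry, against 7.94% of 32851 promoters. The E2F6 letters were found in the same 3 members, against 11.3% of promoters. In *Prdm9* the E2F6 match, which begins 46 bases before the start, overlaps the STRA8 and MEIOSIN match that begins 41 bases before it. The E-box CACGTG, the site of MGA and MAX, was in none of these 7 members' promoters and in 7.15% of all. These matches are descriptions of the letters. They did not sort the members by their change, since *Prdm9* was lower and *Hfm1* and *Msh5* were within 1.5-fold.

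The levels of the members differed far more between genes than between the libraries. In both libraries their order rests on the gene lengths behind the RPKM, which the counting intervals do not cover. The length recovered from the values was 1306 bases for *Prdm9*, 2971 for *Hfm1* and 1598 for *Msh5*. Their longest coding transcripts have 3460, 5018 and 2886 bases. In control testes *Tex11* was highest at 33.2 RPKM (31.8 to 34.7), followed by *Dmc1* at 8.31 (7.48 to 9.21) and *Prdm9* at 6.34 (5.41 to 7.39), and the counting intervals of these 3 did not overlap. *Hfm1* at 4.06, *Msh5* at 3.71 and *Mei1* at 2.93 followed, and the counting intervals of neighbours in this run overlapped. *Mei4* at 1.87 and *Spo11* at 1.61 likewise overlapped, and *Msh4* at 0.830 and *Meiob* at 0.324 were lowest. *Tex11* alone made up 52.5% of the summed RPKM of the 10 genes in control.

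**Figure D1:**
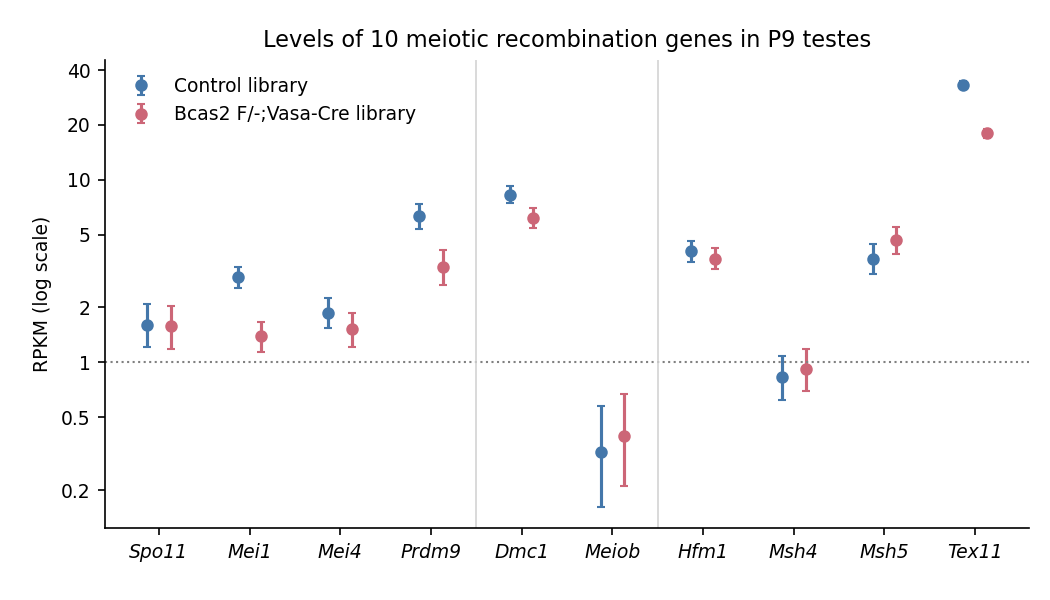
RPKM on a log axis of the 10 members in the control (blue) and Bcas2F/-;Vasa-Cre (pink) library, ordered by role. Bars are 95% Poisson intervals of the recovered reads. The pairs of points stand apart for *Mei1*, *Prdm9*, *Dmc1* and *Tex11*, and the dotted line marks the minimum mean RPKM of 1, under which *Msh4* and *Meiob* lie.

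The order of the levels shifted in the Bcas2F/-;Vasa-Cre library. *Tex11* at 18.0 RPKM (16.9 to 19.1) and *Dmc1* at 6.21 (5.48 to 7.0) stayed highest. *Prdm9* moved from the third to the fifth place at 3.33 (2.65 to 4.12), behind *Msh5* at 4.66 (3.93 to 5.49) and *Hfm1* at 3.71 (3.23 to 4.24). *Mei1* moved from the sixth to the eighth place at 1.39 (1.14 to 1.67), where its interval overlapped those of *Spo11*, *Mei4* and *Msh4*. The intervals of *Dmc1* and *Msh5*, of *Msh5* and *Hfm1* and of *Hfm1* and *Prdm9* overlapped, so the places of these neighbours are not separated by counting error. The summed RPKM of all 10 genes was 63.2 in control and 41.7 in Bcas2F/-;Vasa-Cre testes, or 30.0 and 23.7 without *Tex11*.

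Of the genes for break formation, *Spo11* encodes the topoisomerase-like protein that cuts the DNA. It lies on the plus strand of chromosome 2 of GRCm38 (chr2:172977700-172993576, GENCODE M21). Its RPKM was 1.61 in control, from 58 reads, and 1.57 in Bcas2F/-;Vasa-Cre testes, from 55 reads. The log2 ratio was −0.02 with an interval of −0.36 to 0.32, so a change smaller than that in either direction was not detectable for *Spo11* at this depth. *Mei4* (chr9:81863670-82206007), a partner that *Spo11* needs for cutting, gave 1.87 RPKM from 114 reads in control and 1.52 RPKM from 90 reads in Bcas2F/-;Vasa-Cre testes. Its log2 ratio was −0.19 (−0.44 to 0.07), lower in value but within counting error.

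*Mei1* (chr15:82069996-82126814), another gene required for break formation, had 2.93 RPKM in control and 1.39 in Bcas2F/-;Vasa-Cre testes. These values came from 241 and 111 reads, and the log2 ratio was −0.72 (−0.93 to −0.50). The 2 libraries' counting intervals for *Mei1* did not overlap. *Prdm9* (chr17:15543079-15564354) encodes the histone methyltransferase whose zinc fingers choose where breaks are placed. It went from 6.34 RPKM and 165 reads in control to 3.33 RPKM and 84 reads, a log2 ratio of −0.76 (−1.08 to −0.45). Thus *Mei1* and *Prdm9*, but not *Spo11* and *Mei4*, were past 1.5-fold. Whether the changes of these 4 genes differ from each other beyond the spread between animals was not tested.

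*Dmc1* (chr15:79561497-79605109) encodes the meiosis-specific recombinase that coats the resected DNA and searches for the homologous chromosome. It had 8.31 RPKM from 363 reads in control and 6.21 RPKM from 263 reads in Bcas2F/-;Vasa-Cre testes. Its log2 ratio of −0.37 (−0.57 to −0.17) lay below 0 but inside 1.5-fold. *Meiob* (chr17:24804289-24839788) encodes a single-strand DNA-binding protein needed to keep such recombinases in place. It was barely detected, with 11 and 13 reads and 0.324 and 0.395 RPKM, and no change could be read from it, the interval of its log2 ratio being −0.25 to 0.39.

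Among the crossover genes, *Tex11* (chrX:100838648-101059667) is the X-linked member of the ZMM group, a set of proteins that protect crossover intermediates. *Tex11* had 33.2 RPKM from 2010 reads in control and 18.0 RPKM from 1056 reads in Bcas2F/-;Vasa-Cre testes. The log2 ratio of −0.85 (−0.95 to −0.75) was the lowest of the members on this scale and, with the most reads, the most precisely counted. The order depended on the pseudocount, since with 0.1 in place of 1 *Mei1* and *Prdm9* were at −1.02 and −0.91 and *Tex11* at −0.88. *Hfm1* (chr5:106840192-106926321), a DNA helicase of the same group, gave 4.06 RPKM from 240 reads and 3.71 RPKM from 213 reads. Its log2 ratio was −0.10 (−0.32 to 0.11), within counting error.

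*Msh4* and *Msh5* encode the partners of a MutS-type clamp that slides on crossover intermediates. *Msh5* (chr17:35028605-35046745) was the only tested member with a higher value in the Bcas2F/-;Vasa-Cre library, 4.66 RPKM from 144 reads against 3.71 from 118. Its log2 ratio was 0.27 with an interval of −0.03 to 0.56, which includes 0. *Msh4* (chr3:153857149-153906138) gave 0.830 RPKM from 55 reads and 0.917 RPKM from 59 reads, and its log2 ratio was 0.07 (−0.19 to 0.32). *Msh4* shares exon bases with the snoRNA gene *Gm24395*, so some of its reads may not have been assigned to it. Both clamp genes thus had values above control within counting error, next to a *Tex11* that was 45.9% below control.

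**Figure D2:**
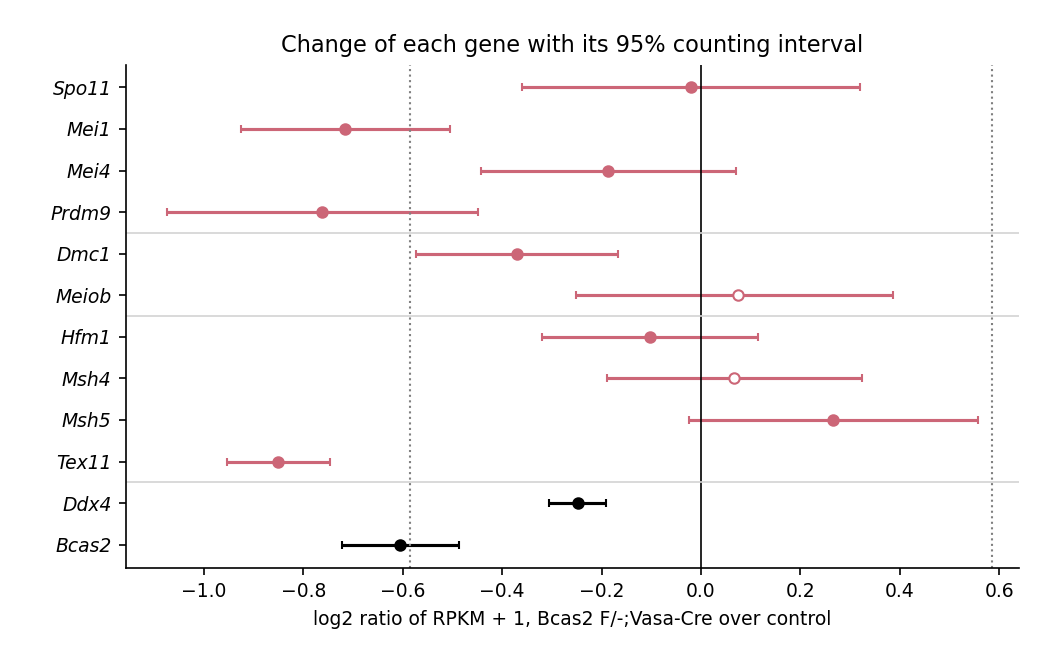
Log2 ratio of RPKM + 1 (Bcas2F/-;Vasa-Cre over control) with 95% counting intervals for the 10 members in pink, and for *Ddx4* and *Bcas2* in black; open symbols are members under the minimum mean RPKM and dotted lines mark 1.5-fold. *Mei1*, *Prdm9* and *Tex11* lie past the left dotted line and *Dmc1* between it and 0, whereas the other intervals of members include 0.

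Of the 8 tested members, 7 had a lower and 1 a higher value in Bcas2F/-;Vasa-Cre testes, with a median log2 ratio of −0.28 against 0.01 over all 14831 tested genes, and the members' median turned to 0.051 with the germ cell markers as the scale. Past 1.5-fold were 3 of the 8 on the lower side, against 1.69% of tested genes, and 0 of the 8 on the higher side, against 1.57%. A further reading is the counting interval, which for 4 of the 8 lay below 0, against 17.6% of tested genes, and for 0 of the 8 above 0, against 20.1%. An interval off 0 was therefore common among all tested genes.

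The members were also ranked among genes of their own level. For those past 1.5-fold a low rank follows from that selection and is no added support. *Tex11* was among the 4 lowest log2 ratios of 3350 genes with a mean RPKM from 20 to 50, a class with 0.597% of its genes past 1.5-fold on the lower side. For *Prdm9*, 74 of 4168 genes with a mean RPKM from 1 to 5 were as low, itself included, and for *Mei1* 92 were. The SD of the log2 ratios in that class was 0.361, with 3.53% of its genes past 1.5-fold on the lower side, so values such as those of *Mei4* and *Msh5* lay within 1 SD of the class median of 0.03. *Dmc1* had 198 of 4652 genes from 5 to 20 RPKM at or below its ratio.

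**Figure D3:**
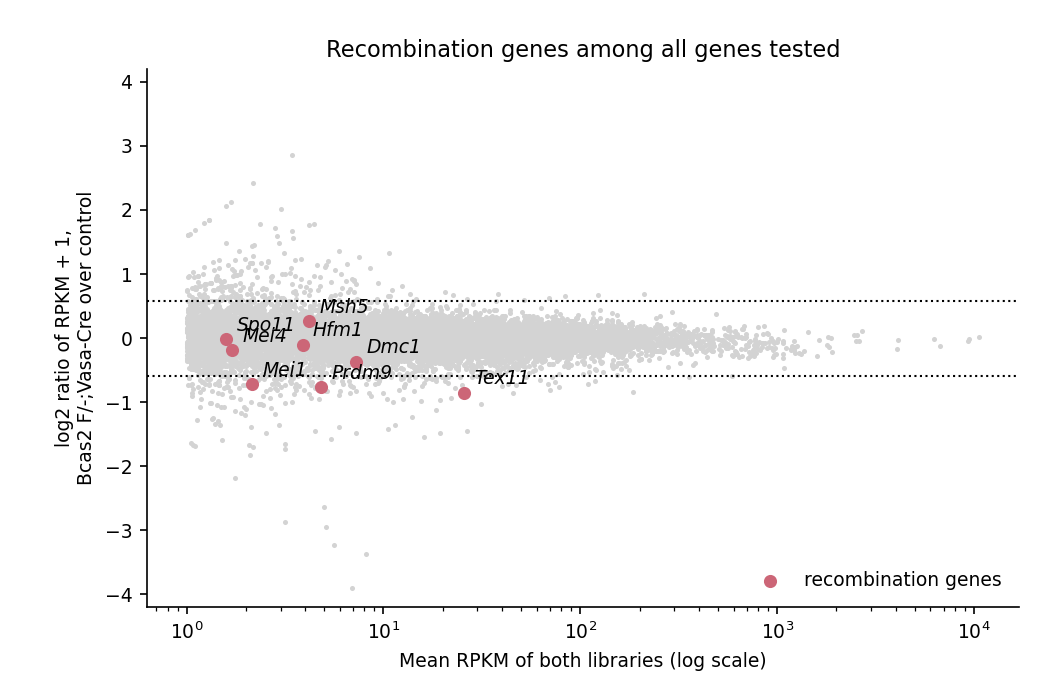
Log2 ratio of RPKM + 1 against the mean RPKM of both libraries (log axis) for the 14831 genes tested in grey, with the 8 tested members in pink and 1.5-fold as dotted lines. *Tex11*, *Prdm9* and *Mei1* lie below the lower line, and the grey cloud narrows with increasing RPKM.

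Germ cell genes as a group were lower in the Bcas2F/-;Vasa-Cre library, and their part in the members' values was not tested. Of 20 germ cell markers, 17 were lower and 3 higher, with a median log2 ratio of −0.33, and their summed RPKM was 1289 in control and 1009 in Bcas2F/-;Vasa-Cre testes. Of these, *Nanos3* and *Sall4*, were more than 1.5-fold lower. *Ddx4*, the germ cell helicase also called MVH, had 96.9 and 81.4 RPKM, a log2 ratio of −0.25 (−0.31 to −0.19), and *Dazl*, encoding a germ cell RNA-binding protein, had 165 and 125 RPKM, a log2 ratio of −0.40. *Dazl* and *Sycp3* stand both among these markers and in a meiotic list. In RNA of whole testes, fewer germ cells and less RNA per germ cell cannot be told apart.

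The other cell types did not share 1 direction. The 7 tested Sertoli cell markers were higher, with a median log2 ratio of 0.11 and summed RPKM over the 8 markers of 763 and 838, while *Rhox5* was listed at 0 in both libraries. Of the 6 Leydig cell markers 4 were higher, with a median of 0.20 and a summed RPKM of 387 and 431. Peritubular and endothelial markers had medians of −0.05 and −0.06, and summed RPKM of 523 and 489, and of 38.9 and 37.1. All 6 macrophage markers were lower, with a median of −0.28 and a summed RPKM of 114 and 87.1, which is 76.5% of control beside 78.3% for the germ cell markers.

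Set against *Ddx4*, the members divided differently. *Tex11* had 34.3 RPKM for every 100 of *Ddx4* in control and 22.1 in Bcas2F/-;Vasa-Cre testes, *Prdm9* had 6.55 and 4.09, and *Mei1* had 3.02 and 1.71. For *Dmc1* the values were 8.58 and 7.62, and for *Mei4* 1.93 and 1.87. *Spo11*, *Hfm1* and *Msh5* had more RPKM for every 100 of *Ddx4* in the Bcas2F/-;Vasa-Cre library, 1.66 and 1.93, 4.18 and 4.55, and 3.83 and 5.72. With the median of the germ cell markers set to 0, a scaling chosen after seeing the data, 0 of the 8 members were more than 1.5-fold lower. This scaling was run only with the pseudocount of 1, which understates the change of weakly expressed genes such as *Mei1*, so the count of 0 holds for that pseudocount. *Tex11*, *Prdm9* and *Mei1* were then at −0.52, −0.43 and −0.39, *Dmc1* at −0.04, and *Spo11*, *Mei4* and *Hfm1* changed direction to 0.31, 0.14 and 0.23. *Msh5* was at 0.60, past 1.5-fold on the higher side.

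The remaining genes of the pathway were taken from 4 lists written by role, with the members left out. Together they held 52 genes, of which 49 were matched and 46 were tested genes. Of these 46, 34 were lower and 12 higher, with a median log2 ratio of −0.18. At the pseudocount of 1, *Rad54b* and *Ccnb1ip1* were past 1.5-fold on the lower side, where 1.69% of all tested genes were. On the higher side were 0 genes, against 1.57% of all tested genes. On RPKM without a pseudocount, *Psmc3ip*, *Mcm8*, *Hormad1* and *Iho1* were also more than 1.5-fold lower, at 64.7%, 64.9%, 65.7% and 65.9% of control. With a pseudocount of 0.01, 3.27% of all tested genes were past 1.5-fold on the lower side. A counting interval below 0 was found for 23 of the 46, against 17.6% of all tested genes, and above 0 for 3, against 20.1%. *Ankrd31*, *Spata22* and *Rnf212b* were not analysed here.

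The break formation genes other than the members had the lowest median of the 4 lists, −0.40 over 7 genes, with 6 lower and 1 higher. None was past 1.5-fold at the pseudocount of 1, whereas *Hormad1* and *Iho1* were on RPKM without a pseudocount. *Hells*, a chromatin remodeller that works with PRDM9, was the most abundant at 184 and 124 RPKM, a log2 ratio of −0.57 (−0.63 to −0.52), just inside 1.5-fold. For strand exchange, 14 of 17 genes were lower, with a median of −0.19. *Rad54b*, which remodels recombinase filaments, was the lowest at 15.4 and 9.67 RPKM, a log2 ratio of −0.62 (−0.82 to −0.43).

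For single-strand binding, 4 of 6 genes were lower, with a median of −0.24. *Rpa2*, a subunit of the general single-strand binding complex, had 166 and 122 RPKM, a log2 ratio of −0.43, and *Mcm8*, part of a helicase for recombination, was the lowest at −0.58. The crossover and resolution genes other than the members were the least shifted, with 10 of 16 lower and a median of −0.11. *Ccnb1ip1*, which encodes the ubiquitin ligase HEI10 that acts on crossover sites, was the lowest, with 6.83 RPKM (205 reads) in control, 3.43 RPKM (100 reads) in Bcas2F/-;Vasa-Cre testes and a log2 ratio of −0.82 (−1.11 to −0.53). *Cdk2*, the most abundant of this list and a kinase with general roles, had 48.5 and 44.5 RPKM and a log2 ratio of −0.12.

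Genes that act beside recombination gave the following values. Of 16 tested genes for end processing and damage signalling, 12 were lower and 4 higher and none passed 1.5-fold, with a median of −0.12. The lowest was the checkpoint kinase gene *Atr* at −0.35, and the most abundant, *H2afx*, encoding the histone that is phosphorylated at breaks, had 45.2 and 41.5 RPKM. *Rad9a* was listed at 0 in both libraries. Of 14 genes of the synaptonemal complex and chromosome axis, 13 were lower, with a median of −0.33. *Smc1b*, a meiotic cohesin subunit, was the lowest at 25.6 and 11.3 RPKM (−1.11), *Syce3*, a component of the synaptonemal complex, was at −0.76, and the most abundant, *Six6os1*, was higher at 55.6 and 63.6 RPKM.

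Of 8 genes listed under meiotic entry, a list not split by direction of action, 7 were lower. Their median was −0.40 over the 8 genes, and 3 were more than 1.5-fold lower. *Meioc*, which stabilises the switch into meiotic prophase, had 13.97 and 6.75 RPKM, a log2 ratio of −0.95 (−1.13 to −0.77). *Meiosin* had 2.81 and 1.41 RPKM and its partner *Stra8* 87.2 and 56.8 RPKM, log2 ratios of −0.66 (−0.91 to −0.40) and −0.61 (−0.71 to −0.51). *Dmrt1*, a transcription factor of spermatogonia and Sertoli cells and the most abundant of this list, was at 226 and 180 RPKM.

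**Figure D4:**
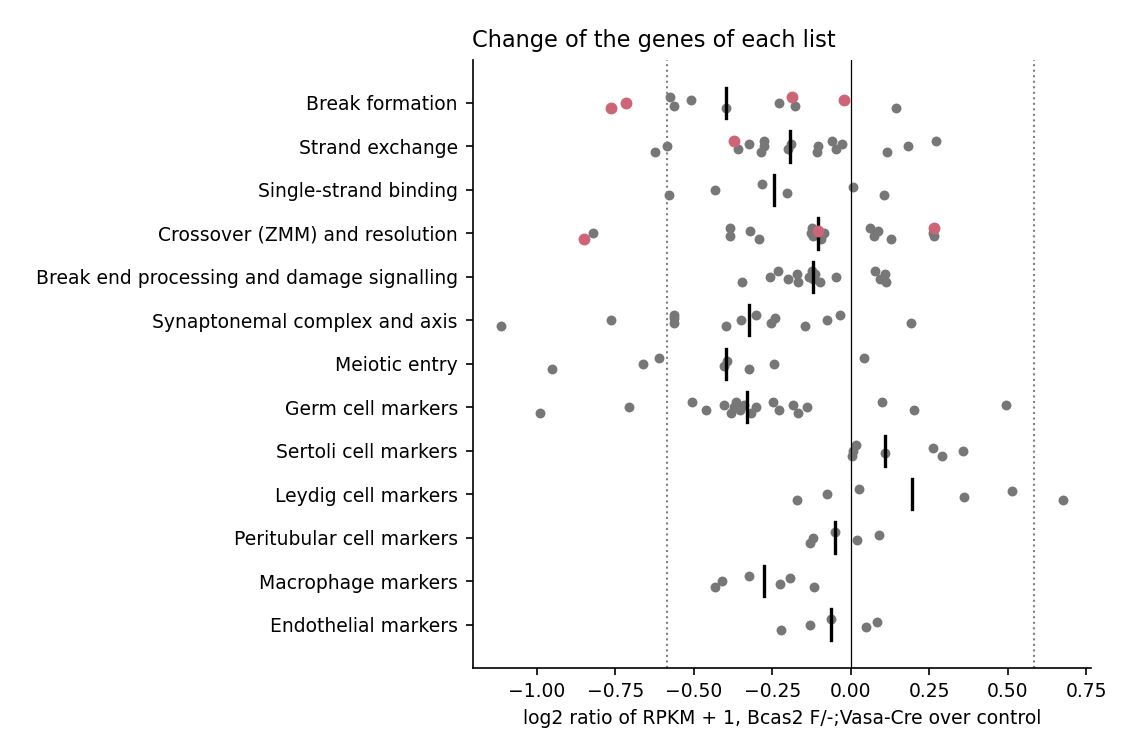
Log2 ratio of RPKM + 1 (Bcas2F/-;Vasa-Cre over control) of each tested gene in 7 pathway lists and 6 cell type marker lists; members are pink, black bars are medians and dotted lines mark 1.5-fold. Medians of the germline lists lie left of 0, from −0.40 for break formation and meiotic entry to −0.10 for crossover genes, whereas that of Sertoli cell markers lies at 0.11.

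Features that the choice by symbol did not use were shared only in part. All 10 members are protein-coding and have several exons, from 5 in *Mei4* to 40 in *Hfm1* in the longest coding transcript. The members past 1.5-fold had 31 (*Mei1*), 10 (*Prdm9*) and 30 (*Tex11*) exons, while *Msh5* has 24 and *Dmc1* 14, so neither a high nor a low exon number set them apart. *Mei1* and *Dmc1* both lie on chromosome 15, and *Prdm9*, *Meiob* and *Msh5* on chromosome 17, with changes in each case of different size. RPKM is given per gene here, so the splicing of these genes was not examined.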

How the data were processed

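Reads had been aligned by the authors with TopHat2 2.0.9 to mm10, as the submitters' processing notes name them, and counted with HTSeq. The authors deposited the result as RPKM for 39695 gene entries in each of 2 libraries. The annotation release and gene lengths are not given in the sources used here. Entries were matched to GENCODE M21 on GRCm38 by Ensembl identifier (37606, 94.7%). Log2 ratios used a pseudocount of 1, and a gene counted as tested when its RPKM averaged 1 or more. Whole reads were recovered as the gene length, nearest to the mean transcript length, at which both libraries gave whole reads within 0.0001. All 25214 entries above 0 had one, and the reads summed to 101.3% and 101.2% of the inferred library sizes. For *Mei1*, *Mei4*, *Prdm9*, *Dmc1*, *Meiob*, *Hfm1* and *Msh4* this length was not the mean transcript length, so their reads could be off by a whole factor, which would change their intervals but not their RPKM. Members and lists were chosen with earlier results of these data known. The text names all members, *Bcas2*, *Ddx4* and *Dazl*, pathway genes past 1.5-fold, and the most abundant and the lowest gene of each pathway list, except 1 that is not reported here; other names were chosen after their values were seen. The steps were tested on simulated reads with counting error only. These used the recovered gene lengths and inferred library sizes, so the test could not reveal a wrong length or the spread between animals. Alternatives were other pseudocounts, filters and scalings. The work was done in Python 3.11.15 with pandas 2.3.3, scipy 1.17.1, numpy 2.4.6 and, for plots, matplotlib 3.10.9.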

Additional observations from a re-analysis of the deposited data

How the results depend on the processing

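Of 86 values recomputed under other settings, 71 stayed within the counting interval, or for counts within 1.5 times, of the value reported. The count of 3 members more than 1.5-fold lower was kept, by the same genes, with both other pseudocounts, with no filter, with the median of all tested genes set to 0 and with RPKM rescaled to a common sum. With pseudocounts of 0.1 and 0.01 *Mei1* was at −1.02 and −1.07, the larger change that the pseudocount of 1 understates. With a mean RPKM of at least 5, only *Dmc1* and *Tex11* were tested, giving a median of −0.61 and 1 member more than 1.5-fold lower, because fewer genes enter. The 251 genes more than 1.5-fold lower became 457 and 485 with those pseudocounts, 468 of 39695 with no filter, 104 with a minimum of 5 and 70 with the germ cell scaling below. The other values that moved did so with the median of the germ cell markers, −0.33, set to 0, a scaling chosen after seeing the data. The median of the members then turned to 0.051 and 0 members were more than 1.5-fold lower. This scaling was not combined with the other pseudocounts. *Tex11*, *Prdm9*, *Mei1* and *Dmc1* were at −0.52, −0.43, −0.39 and −0.041, and *Mei4*, *Hfm1*, *Msh4*, *Meiob* and *Msh5* at 0.14, 0.23, 0.40, 0.40 and 0.60. *Spo11* also changed direction, from −0.02 to 0.31, within its counting interval. The medians of the 7 pathway lists stayed within their counting intervals with a pseudocount of 0.1, the median of all tested genes set to 0 and RPKM rescaled. The germ cell marker scaling, which reversed the sign of the members' median, was not run for these lists. No paired analysis was possible because each genotype had 1 library, which also leaves no library to omit.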
